A study of Rattus norvegicus with 8 samples.

Results

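Lbh, Cnksr3, Ets1, Prx and Gpr176 are 5 genes whose transcripts were among those furthest below untreated cells after 2 h or 4 h of S-nitrosoglutathione (GSNO), a nitric oxide donor, in rat pulmonary artery smooth muscle cells. They were chosen by these measured falls and because little is known of them in this tissue. Their lower signal at 2 h and 4 h is therefore a description, and nothing is read from the counts of members that passed a test. The array carried 7 probe sets annotated to 1 of the 5 symbols alone, of 8740 probe sets that are not control features: 1 each for Lbh (rc_AA800701_at), Cnksr3 (rc_AA893357_at) and Prx (Z29649_at) and 2 each for Ets1 (L20681_at and rc_AI175900_g_at) and Gpr176 (D38450_at and S73608_s_at).

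RNA was measured on 8 oligonucleotide arrays, with 2 arrays, numbered 1 and 2, in each of 4 groups: untreated primary cells with no stated time, and cells exposed to GSNO for 1, 2 or 4 h. The cells of all groups had been grown from explants of pulmonary arteries of adult Sprague-Dawley rats, with endothelium and adventitia stripped off. The series design gives the concentration as 100 μmol/L and the treatment protocol as 100 mmol/L, and neither was taken as the fact here. Whether the untreated cells were kept as long as the exposed ones is not given in the sources used here. In such bulk samples, fewer cells of a type and less RNA per cell cannot be told apart either.

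Lbh encodes a small nuclear cofactor of transcription named for its expression in limb bud and heart, and known as a target of Wnt signalling. Ets1 encodes the founding member of the ETS family of transcription factors, which act downstream of Ras and ERK and are known in vessels for control of matrix proteases and of genes of activated endothelium and smooth muscle. Cnksr3 encodes a scaffold protein of the family that connects KSR, Ras and Raf, known in kidney for assembling regulators of the epithelial sodium channel. Prx encodes periaxin, a PDZ protein of Schwann cells that links the cytoskeleton to dystroglycan through Drp2. Gpr176 encodes an orphan G protein-coupled receptor, known in the brain clock for lowering cAMP through the G protein Gz.

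RefSeq's table of promoters on the build GRCr8 held 3 of the 5 genes, Cnksr3, Prx and Gpr176. They are shown because the members were chosen for lying lower after the same exposure: the 250 bases before and 50 bases after each start, 5′ to 3′ on the strand of the gene, with the matches to the motifs searched in capitals. They lie at chr1:45996872-45997171 on the minus strand, chr1:91914171-91914470 on the plus strand and chr3:125791123-125791422 on the minus strand.
Cnksr3: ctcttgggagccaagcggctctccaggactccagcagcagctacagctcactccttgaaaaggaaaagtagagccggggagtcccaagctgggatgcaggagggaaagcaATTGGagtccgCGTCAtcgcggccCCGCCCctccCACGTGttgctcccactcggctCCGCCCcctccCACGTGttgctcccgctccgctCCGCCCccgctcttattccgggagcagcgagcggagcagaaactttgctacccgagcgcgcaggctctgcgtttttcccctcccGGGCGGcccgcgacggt
Prx: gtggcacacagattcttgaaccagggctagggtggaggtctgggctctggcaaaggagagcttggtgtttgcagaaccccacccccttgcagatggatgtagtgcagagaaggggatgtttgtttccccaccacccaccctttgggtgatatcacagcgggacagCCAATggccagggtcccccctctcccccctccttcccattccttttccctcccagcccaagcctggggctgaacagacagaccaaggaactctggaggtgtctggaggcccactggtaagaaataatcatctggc
Gpr176: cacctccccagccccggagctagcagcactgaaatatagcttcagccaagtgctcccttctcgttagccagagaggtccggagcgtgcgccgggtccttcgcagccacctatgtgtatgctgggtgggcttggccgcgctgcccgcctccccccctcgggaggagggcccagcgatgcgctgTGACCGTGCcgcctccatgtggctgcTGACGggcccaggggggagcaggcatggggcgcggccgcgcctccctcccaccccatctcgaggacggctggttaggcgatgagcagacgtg

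The motifs were searched on both strands among the same 300 bases of 33469 RefSeq genes. The short form of the cAMP response element, TGACG, was matched once in Cnksr3 and once in Gpr176, and in 21.2% of all these promoters. The full site, TGACGTCA, was in none of the 3 and in 1.83% of all. The core of the antioxidant response element, TGACNNNGC, was matched once in Gpr176 and in 12.1% of all. Cnksr3 held the E-box CACGTG at 2 places and the GC box GGGCGG at 4, motifs present in 6.42% and 33.1% of all. The letters CCAAT were matched once in Cnksr3 and once in Prx, and in 37.5% of all. Matches of these motifs did not overlap one another in the 3 sequences, though TGACG lies within TGACGTCA. None of the 3 held the AP-1 site TGANTCA (7.33% of all), the ETS site CCGGAAG (8.75%) or TATAAA (14.2%), so no motif searched was shared by the 3. GC content was 66% in Cnksr3, 69% in Gpr176 and 57.7% in Prx, and the dinucleotide CG occurred 27, 24 and 1 times.

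The arrays numbered 1 differed from those numbered 2 in scan day, fluidics record and chip lot. By the array records, control and 2 h numbered 1 belong to 1 experiment, 1 h and 4 h numbered 1 to another, and the 4 arrays numbered 2 to 1 more, so only those 4 compare all times within 1 experiment. Of 10 smooth muscle markers on the array, 8 were at or above each array's 40th percentile on all 8 arrays, while Des was below it on all 8. Their summed signal was 62981 to 90738 in control and 54163 to 85543 at 4 h. At 4 h the 9 kept smooth muscle markers had a median log2 difference of -0.26. Among them Myh11 (X16262_s_at) gave -0.60 (limma adjusted p = 0.612, and 0.0434 with array number as a block in limma). For the cell types in which Ets1 and Prx are best known, endothelial markers summed to 509 to 686 in control and 319 to 547 at 4 h, with 1 of 6 (none of Kdr, Sele) at or above the 40th percentile throughout. Leukocyte markers summed to 703 to 965 and 545 to 837, with 1 of 8 throughout. Schwann cell markers summed to 4611 to 4702 and 4193 to 6712, with 4 of 9 at or above the 40th percentile throughout and Sox10, Mbp and S100b below it on all 8 arrays. Among the Schwann cell markers, Pmp22 gave 1.04 at 4 h (limma adjusted p = 0.167, and 0.0237 with that block) and 0.04 in its other probe set. Ngfr gave -1.22 at 4 h (limma adjusted p = 0.613, and 0.317 with that block) and Gap43 -1.04 (0.35 and 0.144). The median of the 6 kept Schwann cell markers was -0.23 at 4 h. Of 4 fibroblast markers, which summed to 1163 to 2096 in control and 1113 to 1711 at 4 h, Dcn fell at 4 h in 1 of its 2 kept probe sets, X59859_i_at (log2 difference -2.42, limma adjusted p = 0.0452), and gave -0.35 in the other (adjusted p = 0.914). X59859_i_at gave -2.30 at 1 h (adjusted p = 0.13, and 0.0172 with array number as a block in limma) and 0.37 at 2 h. The part of these cell types in the members' values was not tested.

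Among the 2 transcription regulators, Lbh had the most negative difference of all kept probe sets at 4 h. Its signal, in linear units, was 3003 and 2049 in the control arrays numbered 1 and 2, 874 and 1075 at 1 h, 158 and 547 at 2 h, and 107 and 167 at 4 h. The values at 1 h, 2 h and 4 h lay below both control arrays, and those of 2 h and 4 h overlapped. As a share of control, mean signal was 38.6% at 1 h, 13.9% at 2 h and 5.43% at 4 h. On the log2 scale, after an offset of 21.1 was added to each signal, the difference from control was -1.34 ± 0.51 (SE of the fit) at 1 h, -2.97 ± 0.51 at 2 h and -4.01 ± 0.51 at 4 h. At 2 h it was -4.08 within the arrays numbered 1 and -1.87 within those numbered 2, and at 4 h -4.56 and -3.46. Among the 5877 kept probe sets, ordered from the most negative difference, Lbh stood at place 22 at 1 h, 3 at 2 h and 1 at 4 h.

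For Ets1, the probe set L20681_at had its lowest signal at 2 h under both array numbers. It read 515 and 530 in control, 227 and 312 at 1 h, 72.0 and 131 at 2 h, and 111 and 188 at 4 h. All 3 times lay below both control arrays, and 2 h and 4 h overlapped. The log2 difference was -0.92 ± 0.37 at 1 h, -2.19 ± 0.37 at 2 h and -1.71 ± 0.37 at 4 h, with 4 h minus 2 h at 0.50 and 0.46 under array numbers 1 and 2. At 2 h the array numbered 1 was under its 40th percentile of 91.0, so the level there was near the weakest signals kept. In the order of all kept probe sets, L20681_at stood at place 62 at 1 h, 16 at 2 h and 73 at 4 h.

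The other Ets1 probe set, rc_AI175900_g_at, was weak, with 153 and 84.7 in control. It read 45.5 and 49.4 at 1 h, 39.1 and 12.4 at 2 h, and 32.0 and 3.66 at 4 h, all below the 40th percentile of their arrays. It passed the filter on low signal through the 2 control arrays alone, so a lower signal under GSNO was built into its being kept. Its log2 differences of -0.98, -1.60 and -1.90 moved with the offset more than those of any other member: at 4 h it was -3.21 with an offset of 1 and -0.89 with an offset of 100. The annotation gives another probe set made from the same accession, rc_AI175900_at, to Ripor1, so the gene that this accession stands for is unsettled in the annotation. That probe set read 382 and 400 in control, 330 and 378 at 1 h, 328 and 367 at 2 h, and 217 and 353 at 4 h. Its log2 difference at 4 h was -0.47 ± 0.29 (limma adjusted p = 0.62), against -1.71 for L20681_at.

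Cnksr3, the scaffold gene, differed most between 1 h and 2 h. Its signal was 2257 and 1388 in control, 998 and 1308 at 1 h, 165 and 322 at 2 h, and 214 and 171 at 4 h. The 1 h arrays lay below both control arrays, but the array numbered 2 was at 94.3% of its control and the array numbered 1 at 44.2%. At 2 h and 4 h both arrays were far below, and the 2 times overlapped. The log2 difference was -0.62 ± 0.37 at 1 h, -2.83 ± 0.37 at 2 h and -3.07 ± 0.37 at 4 h, with 2 h minus 1 h at -2.45 and -1.95 under the 2 array numbers. Cnksr3 stood at place 206 of the order at 1 h, 5 at 2 h and 6 at 4 h. By 2 h it had reached 91.9% of its largest difference on the log2 scale, against 74.1% for Lbh.

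Prx, the gene of the periaxin scaffold, was lowest at 2 h under both array numbers. It read 450 and 380 in control, 224 and 178 at 1 h, 87.3 and 139 at 2 h, and 164 and 172 at 4 h. The 1 h arrays were near the 50% level, at 49.8% and 46.9% of the control of the same number. The 4 h arrays lay above both 2 h arrays and below both 1 h arrays. The log2 difference was -0.98 ± 0.31 at 1 h, -1.72 ± 0.31 at 2 h and -1.20 ± 0.31 at 4 h, with 4 h minus 2 h at 0.77 and 0.27 under the 2 array numbers. The array numbered 1 at 2 h was again under its 40th percentile. Prx stood at place 54 of the order at 1 h, 30 at 2 h and 213 at 4 h.

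Gpr176, the receptor gene, overlapped with control at 1 h and was lowest at 4 h in both probe sets. D38450_at read 2701 and 3074 in control, 2440 and 2969 at 1 h, 1098 and 2111 at 2 h, and 633 and 760 at 4 h. Control and 1 h overlapped, and 2 h and 4 h lay below them without overlap. The other probe set, S73608_s_at, read 351 and 278 in control, 279 and 227 at 1 h, 176 and 227 at 2 h, and 88.3 and 90.0 at 4 h. In it, 1 h overlapped with control and with 2 h, and 4 h lay apart from all. The log2 differences of D38450_at were -0.10 ± 0.33, -0.91 ± 0.33 and -2.02 ± 0.33 at 1 h, 2 h and 4 h, and those of S73608_s_at were -0.29 ± 0.29, -0.59 ± 0.29 and -1.60 ± 0.29. At 4 h D38450_at gave -2.06 and -1.99 under the 2 array numbers.

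**Figure D1:**
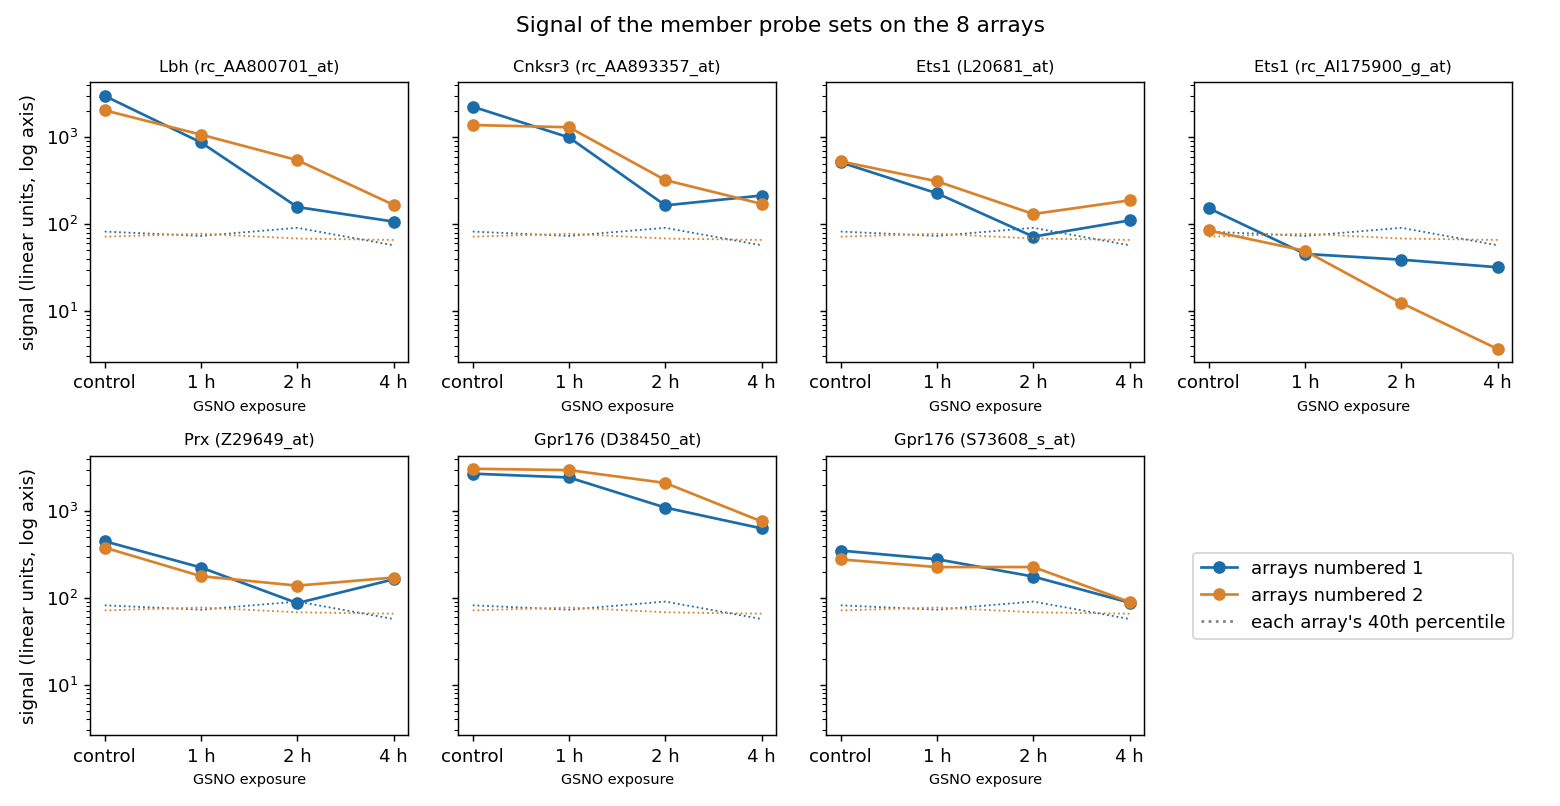
Signal of the 7 probe sets (linear units, log axis) against GSNO exposure, with 1 line for the arrays numbered 1 and 1 for those numbered 2; dotted lines are each array's 40th percentile. Ets1 (L20681_at) and Prx are lowest at 2 h under both array numbers, Lbh and Gpr176 at 4 h, and rc_AI175900_g_at is below the 40th percentile on all 6 GSNO arrays.

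By mean log2 difference, the probe sets differed in the time at which they were lowest. The difference between 4 h and 2 h passed in none of the 7 (limma adjusted p = 0.744 to 0.988). After 1 h, L20681_at of Ets1 and Prx had reached 41.9% and 56.6% of their largest difference on the log2 scale, Lbh 33.3%, Cnksr3 20.2%, and Gpr176 4.83% in D38450_at and 18.1% in S73608_s_at. At 2 h, Gpr176 stood at 45.0% and 37.0%. The weak Ets1 probe set rc_AI175900_g_at was instead lowest at 4 h, and stood at 51.8% at 1 h and 83.8% at 2 h. These shares compare times within a probe set and rest on 2 arrays a time. At 2 h, 6 of the 7 probe sets were further below control under array number 1 than under array number 2. So were 60% of the other 50 kept probe sets at least 1 log2 unit lower at 1 h. The share was 74.6% of 126 at 2 h and 69.6% of 335 at 4 h. The 40th percentile of the 2 h array numbered 1 was 91.0, against 57.2 to 82.3 on the other 7 arrays.

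**Figure D2:**
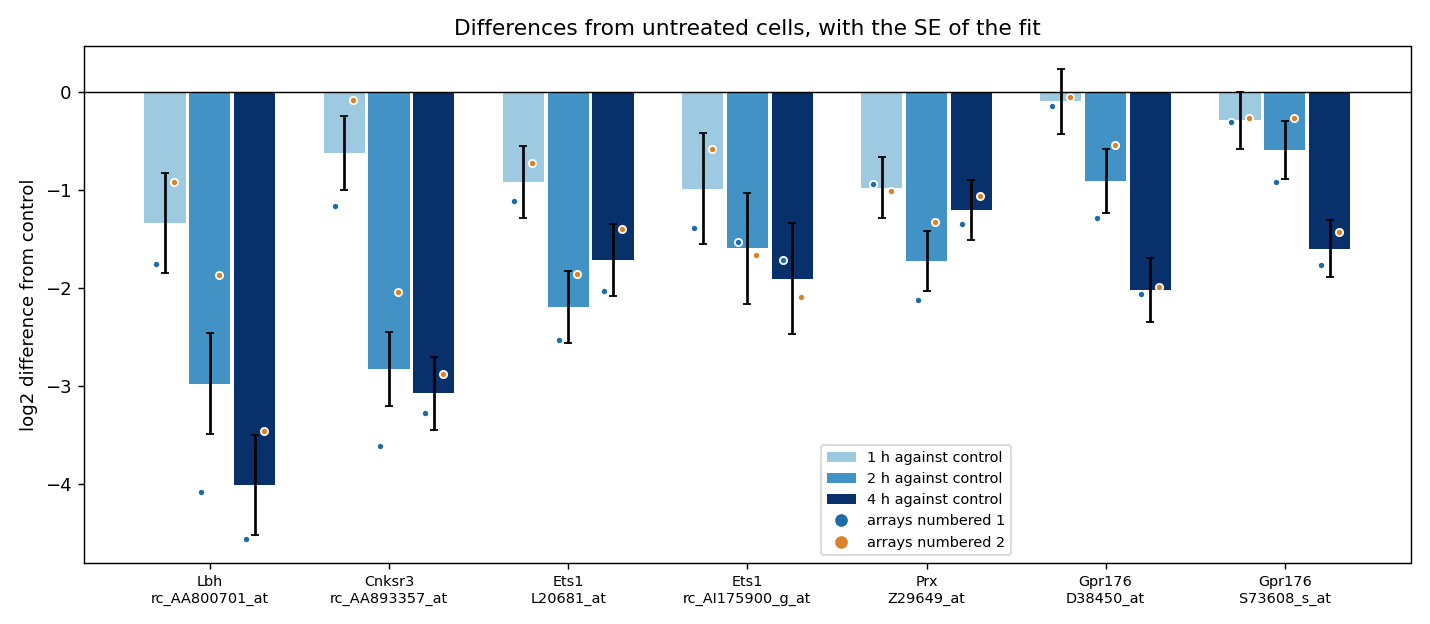
Log2 difference from control of each probe set at 1 h, 2 h and 4 h; bars are means of 2 arrays a group with the SE of the limma fit, and points are the differences between arrays of the same number. At 2 h the points of Lbh lie at -4.08 and -1.87, and at 4 h those of Gpr176 (D38450_at) lie at -2.06 and -1.99.

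All 7 probe sets passed the filter on low signal. The fit, limma over all 5877 kept probe sets with a Benjamini-Hochberg adjusted p under 0.05, called 0 of the 7 at 1 h, where 0.034% of all kept probe sets were called lower and an unadjusted p under 0.05 was reached by 3 of the 7. It called 4 of 7 as lower at 2 h (Lbh, Cnksr3, Prx and L20681_at of Ets1), against 0.187% of all, and 4 at 4 h (Lbh, Cnksr3 and both Gpr176 probe sets), against 0.579%. The choice of members used the 2 h and 4 h values. With array number added as a replicate block, 0, 5 and 7 were called as lower after 1, 2 and 4 h of GSNO, where 0.204%, 0.97% and 3.68% of all were. With the recorded experiment as the block, 4 were called at 2 h and 5 at 4 h. Over all kept probe sets the median log2 difference was -0.05, -0.06 and -0.16 at the 3 times. Both GSNO arrays lay below both control arrays for 5 of the 7 at 1 h and for 7 at 2 h and 4 h, as they did for 13%, 17% and 27.5% of all kept probe sets. The 3 comparisons share their control arrays. These counts include rc_AI175900_g_at, whose lower signal was built into its being kept. Without it, a choice made after seeing the data, 4 of 6 lay below both control arrays at 1 h and 6 at 2 h and 4 h, and 6 were called at 4 h with the replicate block.

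The calls made without the block fell in number when any 1 array was left out, also an array outside the comparison. Leaving out such an array changes only the shared spread and the degrees of freedom of the fit, not the log2 difference. At 2 h the 4 calls dropped to 0 without control array 1 or 2 h array 1, to 1 without control array 2 or either 1 h array, and to 2 when 2 h array 2 or either 4 h array was left out. At 4 h they dropped to 0 without control array 1, to 1 without either 4 h array and to 2 without control array 2. The log2 differences at 2 h and 4 h stayed negative in each of these fits.

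Each member was set beside the genes with the most similar profile, by Pearson's r of log2 signal over the 8 arrays after the mean of each array number was subtracted. The 897 candidates were kept probe sets of other single symbols with a standard deviation of at least 0.5. These arrays are the ones the members were chosen on and share controls and array records, so r is a description. Closest to Lbh were Tent4a, Egr1, Fzd1, Btg1 and Ptpn21 (r = 0.981 to 0.973). Closest to Cnksr3 were Bdnf, with r = 0.997, and then Btg1, Tent4a, Fzd1 and Egr1. Tent4a encodes a terminal nucleotidyltransferase, Btg1 an antiproliferative factor, Fzd1 a Wnt receptor and Bdnf a neurotrophin. Their log2 differences at 4 h were -2.68 and -1.94 for Egr1 (M18416_at, close to Lbh, and AF023087_s_at, close to Cnksr3), -1.16 for Tent4a, -1.84 for Fzd1, -1.52 for Btg1, -2.01 for Ptpn21 and -1.18 for Bdnf, beside -4.01 for Lbh and -3.07 for Cnksr3.

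Ets1 and Prx shared 3 of their 5 closest genes, the transcription factor Maf, the matricellular gene Ccn1 and Fam111a. To Ets1 the cholesterol synthesis gene Fdft1 and the ligand gene Bmp4 were also close, and to Prx the exchange factor gene Dock8 and Dusp6, a phosphatase of ERK. Maf had mean differences of -0.78, -2.05 and -1.36 at 1 h, 2 h and 4 h, the smaller size at 4 h than at 2 h also seen in Ccn1 (-2.04 and -1.59) and Bmp4 (-2.70 and -2.05). In Bmp4, 4 h minus 2 h was 1.37 under array number 1 but -0.08 under array number 2, and in Dock8 0.66 and -0.08. In the other neighbours of Ets1 and Prx it was positive under both numbers. Ccn1 and Fam111a differed between array numbers in level, with control signals of 357 ± 327 and 440 ± 561 (SD, n = 2), and without subtraction of that mean their r to Ets1 was 0.479 and 0.129. Closest to Gpr176 were Npr3, the clearance receptor of natriuretic peptides, Agtr1a, the angiotensin II receptor of smooth muscle, Tns3, Plpp1 and Cd200 (r = 0.995 to 0.989). Without subtraction of the mean of each array number, r to Gpr176 was 0.662 for Agtr1a and 0.532 for Cd200. It was 0.93 to 0.98 for Npr3, Tns3 and Plpp1. The log2 differences of these 5 genes ran from -0.18 to 0.03 at 1 h and from -1.37 to -1.17 at 4 h. Among the members themselves, r was 0.966 for Lbh and Cnksr3, 0.96 for L20681_at of Ets1 and Prx, 0.978 for the 2 probe sets of Gpr176, and 0.577 for Prx and D38450_at.

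**Figure D3:**
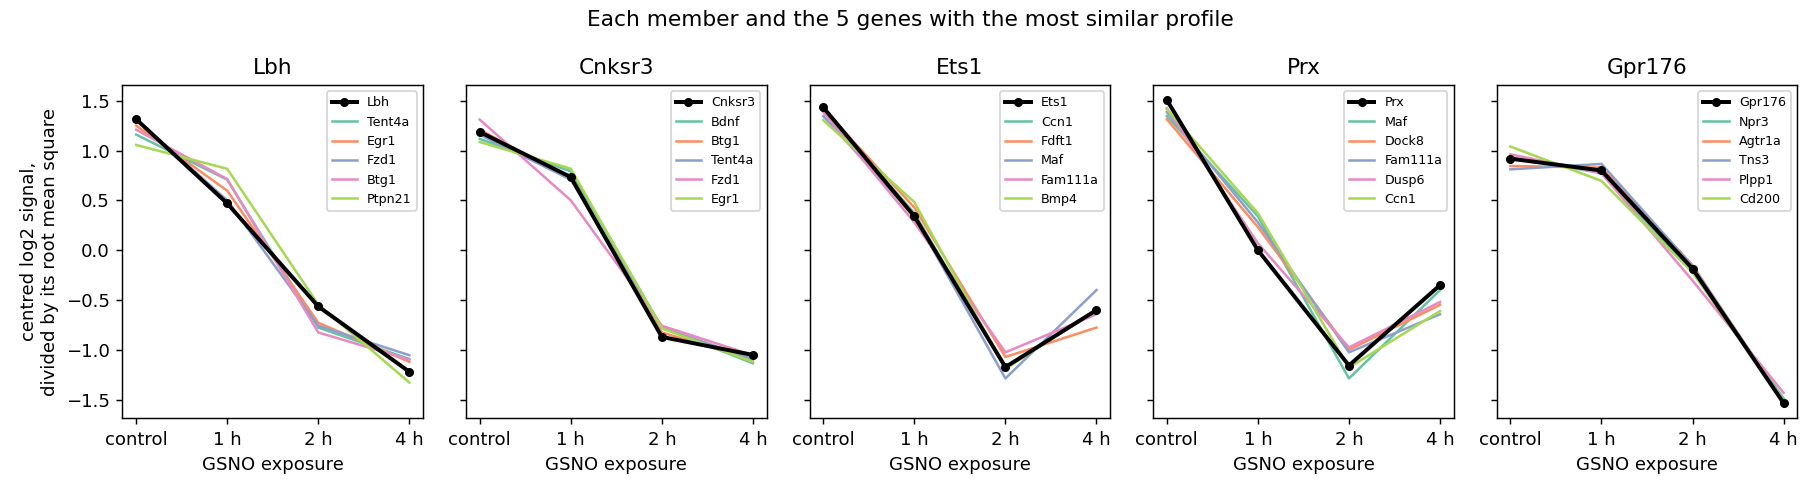
Mean log2 signal in each group after subtraction of the mean of each array number, divided by its root mean square over the 8 arrays, for each member (black, with points) and its 5 most similar genes (colours). The mean profiles of Ets1, Prx and their neighbours turn up from 2 h to 4 h, for Bmp4 and Dock8 under array number 1 alone. Those of Gpr176 and its neighbours are lower mainly after 1 h, and those of Lbh and Cnksr3 go down at each step.

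Few genes of the pathways tied to the 5 members were called. Of 176 genes listed for the ETS family, ETS1 targets, the Ras-ERK cascade, sodium channel regulation, the dystrophin complex, Wnt signalling and G proteins, 61 had a kept probe set. Limma called 0 of 61 after 1, 2 and 4 h of GSNO, though an unadjusted p under 0.05 was reached by 2, 6 and 6. Without either 2 h array it called 1 at 4 h, Fzd1. Over all 3474 genes, 0.403% were called higher and 0.0288% lower at 1 h, 0.633% and 0.23% at 2 h, and 0.864% and 0.576% at 4 h. With the replicate block 1 of 61 rose and 0 fell at 1 h, 1 rose and 4 fell at 2 h, and 0 rose and 4 fell at 4 h, beside 0.979% and 0.144% of all genes at 1 h, 1.76% and 1.01% at 2 h, and 3.86% and 3.83% at 4 h. With the block, the shares that fell at 2 h and 4 h were above those of all genes, and the share that rose at 4 h was below. These shares rest on few genes, and their difference from all genes was not tested. The 0 that rose at 4 h depends on the probe set read for Dusp1, as its other 2 probe sets passed with the block. The lists were chosen with earlier results of these data known. The median difference of the 61 at 4 h was -0.18, and that of all genes -0.17.

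In the Ras-ERK list, 15 of 32 genes were kept, and those called with the block included feedback inhibitors of ERK. Spry1, an inhibitor of receptor tyrosine kinase signalling, read 774 and 659 in control, 438 and 920 at 1 h, 187 and 278 at 2 h, and 120 and 243 at 4 h. The 2 h and 4 h arrays of Spry1 lay below both control arrays, and the log2 difference at 4 h was -1.93 ± 0.43 (limma adjusted p = 0.0802, and 0.00391 with the block). Dusp6 gave -2.08 at 2 h (adjusted p = 0.141, and 0.0394 with the block) and -1.69 at 4 h (0.172 and 0.053). Its other probe set, X94185cds_s_at, passed without the block at 4 h (-2.68, adjusted p = 0.0366). X94185cds_s_at was weak under GSNO, with means of 27.5, 24.8 and 13.7 at 1 h, 2 h and 4 h, against 201 in control. It passed the filter on low signal through the control arrays alone, so a lower signal under GSNO was built into its being kept. Dusp1, a phosphatase of MAP kinases, went the other way: it gave 1.13 at 1 h (adjusted p = 0.31, and 0.014 with the block) and 0.83 at 2 h (0.504 and 0.0453). Its signal was 1931 and 1607 in control and 3707 and 4056 at 1 h, and its other 2 probe sets gave 1.43 and 1.42 at 1 h. At 4 h it gave 0.43 (adjusted p = 0.637, and 0.23 with the block). The other 2 Dusp1 probe sets gave 0.89 (0.247 and 0.0234 with the block) and 0.92 (0.497 and 0.0105) at 4 h. Pea15, which holds ERK in the cytoplasm, gave -0.60 at 4 h (0.345 and 0.0449 with the block), and its other probe set -0.41 (0.365 with the block). Cnksr2, the relative of Cnksr3, was weak and gave 1.12 ± 0.37 at 2 h (adjusted p = 0.473), from 44.9 and 42.9 in control to 129 and 111. At 4 h it gave 0.40. The other 2 Cnksr2 probe sets, both too weak to pass the filter, went the other way. They gave -0.29 and -0.14 at 2 h and -1.02 and -0.48 at 4 h, so the direction for Cnksr2 is unsettled.

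The 7 kept genes of the Wnt pathway included 2 receptors called with the block. Fzd1 read 1976 and 2081 in control, 1016 and 1667 at 1 h, 424 and 992 at 2 h, and 531 and 573 at 4 h. Its arrays lay below both control arrays at all 3 times, with a log2 difference of -1.61 at 2 h (adjusted p = 0.182, and 0.00796 with the block) and -1.84 ± 0.40 at 4 h (0.0754 and 0.00245). Fzd2 gave -1.09 at 2 h (0.456 and 0.0215 with the block) and -0.58 at 4 h (0.613 and 0.16). The median of the list was -0.23 at 4 h.

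The remaining lists held 1 more gene called with the block. Of 13 kept G protein and RGS genes, Rgs4, a regulator of G protein signalling that is also in the Ras-ERK list, gave -1.80 ± 0.85 at 4 h (adjusted p = 0.497, and 0.0445 with the block). It read 219 in control and 13.4 at 4 h under array number 1, and 412 and 228 under array number 2, so the groups overlapped. Its difference was -0.37 without 4 h array 1 and -3.22 without 4 h array 2. Rgs12 gave -0.79 at 4 h, which did not pass. Of 13 kept genes reported elsewhere as ETS1 targets, 0 were called by limma with or without the block and 0 had an unadjusted p under 0.05, with a median of -0.07 at 4 h. The 2 furthest from control there were Angpt2, an angiopoietin (-1.58, adjusted p = 0.556), and Plaur, the urokinase receptor (0.78, adjusted p = 0.761). The control arrays of Angpt2 read 33.2 and 291, and its difference was -2.85 without control array 1 and -0.32 without control array 2. That of Plaur was 1.25 and 0.31 without the same arrays. The 1 other ETS factor kept, Fev, gave -0.37 at 4 h (adjusted p = 0.695). Of 8 genes of sodium channel regulation and 5 of the dystrophin complex, 0 were called with or without the block, and 0 and 2 had an unadjusted p under 0.05 at 4 h. The largest differences among them at 4 h were -0.85 for the channel subunit Scnn1a, -0.55 for Scnn1g, -1.25 for dystrophin, Dmd, and -0.64 for Cav3. Single arrays moved 3 of them by over 1.5 times: without 4 h array 1 Scnn1g came to -0.066 and Dmd to -0.63, without 4 h array 2 they came to -1.03 and -1.88, and Scnn1a was -0.36 without control array 1 and -1.35 without control array 2. At 4 h Scnn1g read 37.8 and 93.6, and Dmd 19.0 and 74.6. The other 2 Cav3 probe sets gave -0.96 and -0.93 at 4 h, with adjusted p = 0.0386 and 0.036 in limma with the block.

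**Figure D4:**
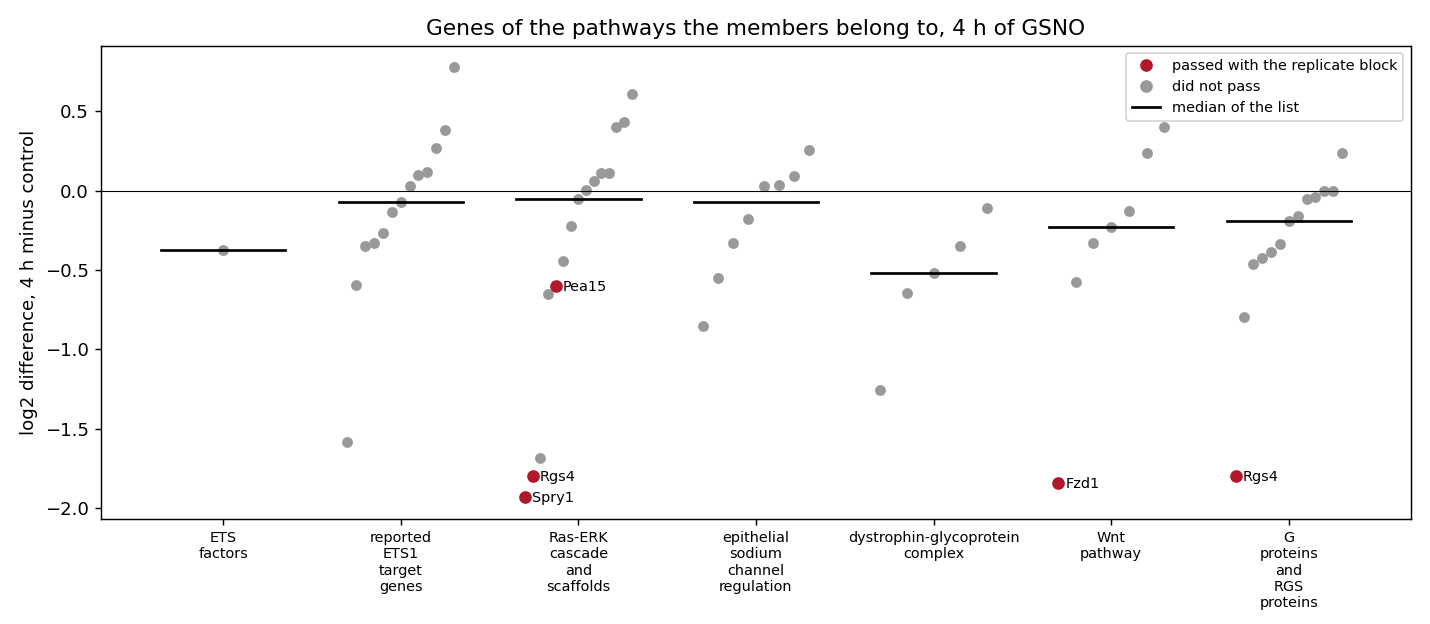
Log2 difference, 4 h minus control, of the kept genes of 7 pathway lists without the members themselves; each point is 1 gene by its strongest kept probe set, and the line is the median of the list. Spry1, Rgs4, Pea15 and Fzd1 (red) passed limma's threshold with the replicate block, and 0 genes passed it without.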

How the data were processed

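RNA of 8 samples was hybridised to Affymetrix rat oligonucleotide arrays, and the authors analysed the scans with Affymetrix GeneChip software 5.0, as the series design states. Intensity values were deposited, 1 linear signal per probe set. Their trimmed mean, without 2% at each end, was 500.7 to 501.0 on all arrays, so signals were used as deposited. The 59 control features were left out. Signals plus an offset of 21.1 (the median over arrays of the 20th percentile) were taken to log2. Probe sets at or above the 40th percentile of 2 or more arrays were kept, 5877 of 8740.

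Differences were fitted with limma 3.58.1 in R 4.3.3 (lmFit, eBayes with a variance trend) over all 4 groups, with 4 residual degrees of freedom, two-sided, and adjusted by Benjamini-Hochberg over all kept probe sets. The script was tested on simulated data. Groups and array numbers came from the sample titles. The design speaks of separate cell preparations but does not tie them to arrays, so p-values may measure technical spread only. No 2 of the 28 pairs of arrays were identical. Deviations from the group means of arrays of the same number correlated at 0.387 to 0.569 for all pairs of groups, above 0.1, so the number pairs the arrays and the fit with the replicate block is given beside calls it changes. Each group holds both numbers, so the block changes errors only.

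Gene names came from the platform annotation held by GEO. The 5 members and all lists were chosen with earlier results of these data known. Named were all member probe sets, the 5 genes most like each member, listed genes called at any time or else up to 2 per list with the largest difference at 4 h, and relatives of a member; genes called with the block were added after their values were seen. List genes were read by the kept probe set with the highest mean. Signal was not compared between genes, and summed marker signals compare groups within a list. The number of arrays limits the precision.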

Additional observations from a re-analysis of the deposited data

How the results depend on the processing

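With array number added as a replicate block, 79, 186 and 466 probe sets were called at 1 h, 2 h and 4 h, against 31, 57 and 90 without it. Blocking on recorded experiment gave 152 at 2 h and 165 at 4 h, and with only the 2 groups compared 37 at 2 h. Leaving out 1 array gave 5 to 27, 19 to 52 and 32 to 87. Member probe sets called at 2 h numbered 4, but 2 with an offset of 1, 1 with only the 2 groups compared, 1 without a variance trend, and 0 to 2 with 1 array left out. At 4 h they numbered 4, but 2 with arrays scaled to a common median, 7 with the replicate block and 0 to 3 with 1 array left out. Pathway genes called numbered 0, but 1, 5 and 4 with the replicate block, 3 at both 2 h and 4 h when blocked on recorded experiment, and, at 4 h, 1 with only the 2 groups compared and 0 to 1 with 1 array left out. Of the 90 calls at 4 h 56 were higher and 34 lower, against 83 and 21 with a common median. The cause was not tested.

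Of the member log2 differences only that of Gpr176 (D38450_at) at 1 h changed sign, with a range of -0.24 to 0.043 with 1 array left out. All member differences were smaller in size with an offset of 100 than with 1, for rc_AI175900_g_at at 2 h -0.79 against -2.31. The 5 closest genes were kept in full by Lbh without subtraction of array-number means, and 4, 2, 2 and 2 by Cnksr3, Ets1, Prx and Gpr176. By Spearman's correlation 0, 3, 3, 2 and 1 were shared for Lbh, Cnksr3, Ets1, Prx and Gpr176.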
